A study of Mus musculus with 12 samples.

Results

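The genes described here are 41 mouse genes of mitosis and of the kinetochore, the protein assembly through which a chromosome is held by spindle microtubules. They were chosen from a list of gene symbols, with earlier results of these data known. Each matched 1 of the 55385 gene identifiers in the count table. All 41 were among the 15283 genes that passed the filter on low counts, and the lowest count of a member in any library was 127 (for Pttg1). RNA sequencing was done on 12 libraries of C57BL/6 mouse cells in 3 groups of 4. The groups were the endometrial cancer cell line HPmECC (title code WT), the endometrial cancer cell line mECC (title code DM), and primary cultured normal endometrium cells (title code B6, called normal here). The series' design text speaks of Myc overexpression in cancer cells, but no label assigns it to HPmECC or to mECC, and no genotype, treatment, time or age is given. Each cancer group is a single cell line, and nothing says that its 4 libraries came from separate cultures, or the 4 normal libraries from separate animals. So the p-values weigh differences against library-to-library spread alone, and that spread may be technical. CPM here are counts scaled to TMM-adjusted library size, and TPM, which are also per transcript length, are as deposited. Myc itself averaged 266 ± 24 CPM in HPmECC, against 59.4 ± 2.09 in mECC and 111 ± 5.05 for the normal cultures (SD, n = 4 each).

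A cell enters mitosis when cyclin A and cyclin B activate the kinase Cdk1, with Plk1 and the Aurora kinases acting beside it. Condensin and topoisomerase II compact and untangle the chromosomes, motor proteins build the spindle, and the NDC80 complex of the outer kinetochore grips microtubules. The spindle checkpoint (Bub1, Bub1b, Bub3, Mad2l1 and Ttk) holds back the anaphase-promoting complex until every chromosome is attached. Then Cdc20 activates that complex, securin and cyclin B are destroyed, separase cuts cohesin, and anillin and Ect2 guide the splitting of the cell. Most of these genes are transcribed late in the cell cycle, so their RNA is widely used as a mark of proliferating cells, as in the cyclic endometrial epithelium.

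Most of the 41 genes were higher in HPmECC than in mECC, and higher in both cancer lines than in normal cells. A gene was called where its Benjamini-Hochberg adjusted p in edgeR's quasi-likelihood test was under 0.05. Setting HPmECC against mECC, 38 members were higher, 1 was lower (Spc25) and 2 were not called (Mad2l1 and Pttg1). The background was 68.3% of all genes tested, 33.8% upwards and 34.5% downwards. Setting HPmECC against normal cells, 39 were higher, 1 was lower (Anln) and 1 was not called (Ect2), on a background of 86.4%, 43.0% upwards and 43.3% downwards. Setting mECC against normal cells, 33 were higher, 4 were lower (Bub3, Prc1, Anln and Ect2) and 4 were not called (Cdca8, Smc2, Mki67 and Kif23). The background there was 86.3%, 42.1% upwards and 44.2% downwards. These 3 comparisons draw on the same 3 groups of libraries and are not independent of each other.

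The steps were small between the lines and larger against normal cells. The median fitted log2 fold change (log2FC) over the members was 0.46 in HPmECC against mECC, with quartiles at 0.32 and 0.58. Over all genes tested that median was -0.002. No member reached a 2-fold difference between the lines, where 6.73% of all genes were called and at least 2-fold higher and 9.4% at least 2-fold lower. In HPmECC against normal cells the members' median was 1.17 (0.001 over all genes), and 24 members were called and at least 2-fold higher, against 18.5% of all genes, and none 2-fold lower, against 23.0%. In mECC against normal cells the members' median was 0.76 (-0.018 over all genes), with 12 members at least 2-fold higher, 1 at least 2-fold lower, and 18.4% and 22.8% of all genes doing so. The 4 libraries of HPmECC lay entirely above those of mECC for 38 members and entirely below for 1, which 31.2% and 31.9% of all genes did. Against normal cells the HPmECC libraries lay entirely above for 39 and below for 1 (40.5% and 41.2% of all genes), and the mECC libraries above for 32 and below for 4 (40.0% and 42.3%). Added up, the 41 genes took 4603 ± 19.6 CPM in the HPmECC libraries, 3355 ± 137 in those of mECC and 2456 ± 57.2 in those of normal cells (SD, n = 4 each).

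**Figure D1:**
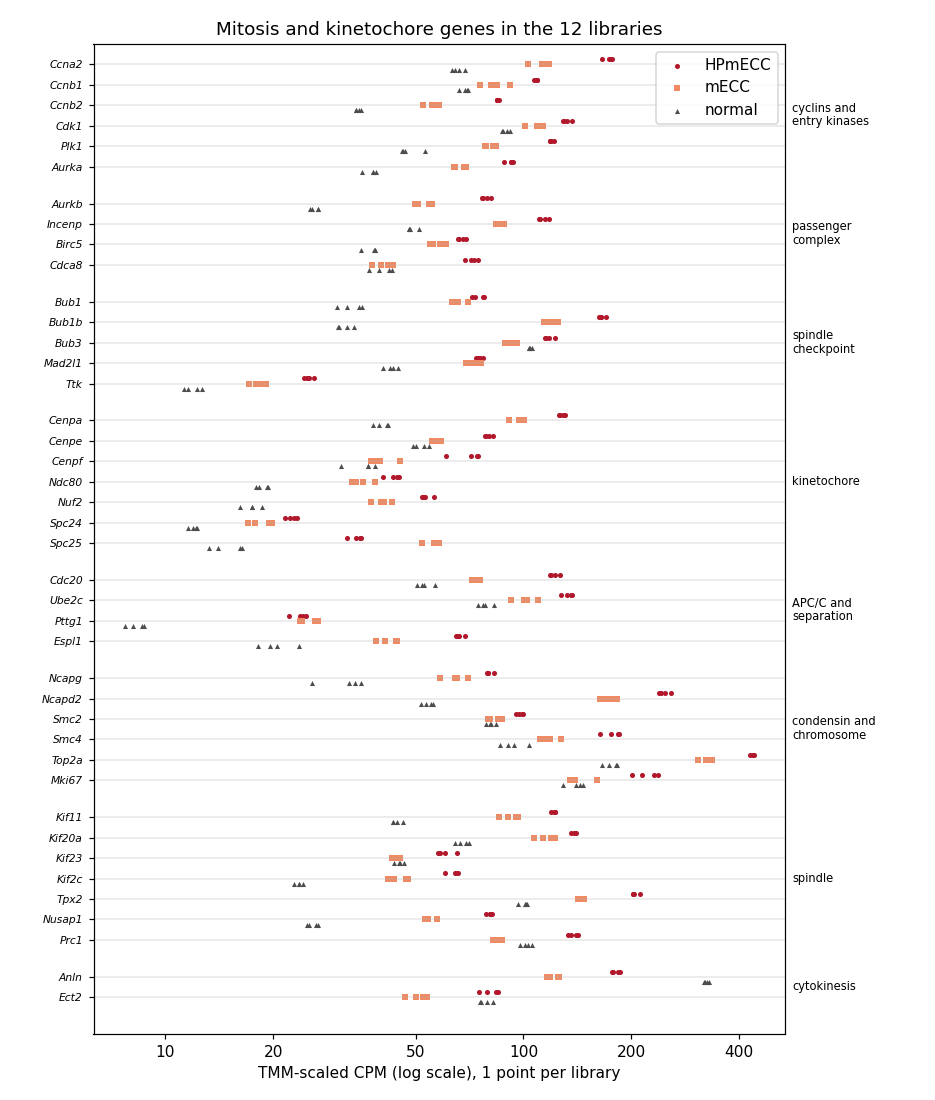
CPM after TMM scaling (log axis) of each of the 41 genes in each of the 12 libraries, 1 point per library, grouped by role. The HPmECC points have the highest mean for 38 genes, mECC for 2 (Spc25 and Pttg1) and normal cells for 1 (Anln).

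The counts against normal cells moved with the scale. With library totals in place of TMM factors, the median of all genes moved by 0.239 in mECC against normal cells and by 0.196 in HPmECC against normal cells, on the log2 scale. The members' medians then stood at 0.997 and 1.37, with 37 higher and 2 lower in mECC and 40 higher and 1 lower in HPmECC. Between the lines the shift was -0.045 and the members' median 0.418. Over all genes the split with library totals was 7866 higher and 5453 lower in mECC against normal cells (6436 and 6748 with TMM). On log2(TPM + 1) it was 7567 and 5275. In HPmECC against normal cells the split was 7725 higher and 5583 lower with library totals (6575 and 6625 with TMM), and 7368 and 5480 on log2(TPM + 1). With library totals Cdca8 (log2FC 0.253), Smc2 (0.278), Mki67 (0.282) and Kif23 (0.215) were called higher in mECC than normal cells, while Pttg1 was called lower in HPmECC than in mECC (-0.131). The calls of Bub3 and Prc1 as lower in mECC than in normal cells did not hold on that scale.

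Markers of other cells also separated the groups. Summed over 8 epithelial markers, the level was 279 to 293 CPM in HPmECC libraries, 914 to 943 CPM in mECC libraries and 6820 to 7090 CPM in normal libraries. All 8 were lower in HPmECC than in mECC and than in normal cells, and in mECC 7 were lower than in normal cells and 1 (Krt19, named after its values were seen) was not called. The sum hides a wide gap between the lines in Epcam, at 0.34 CPM in HPmECC, against 92.6 in mECC and 461 for the normal cultures, and in Cdh1, at 0.94 CPM in the HPmECC libraries, 105 in those of mECC and 838 in those of normal cells. Over 8 fibroblast and mesenchymal markers it was 8680 to 9360, 7550 to 8380 and 2170 to 2700 CPM in HPmECC, mECC and normal libraries, but single markers went either way, with 5 higher and 3 lower against normal cells in each line, and 4 higher and 4 lower in HPmECC against mECC. Over 6 smooth muscle markers it was 187 to 249, 51.6 to 54.1 and 2280 to 2750 CPM. Over 8 leukocyte markers it was 17.5 to 20.2, 11 to 14 and 243 to 259 CPM, with 3 markers (Ptprc, Adgre1 and Cd3e) at 0 counts in HPmECC, 1 (Cd3e) in mECC and 0 in normal cells. Over 6 endothelial markers it was 5.23 to 7.71, 3.33 to 4.15 and 109 to 122 CPM, with Cdh5 and Tek at 0 counts in HPmECC. Over 5 mesothelial markers it was 8.99 to 11.1, 36.6 to 42.1 and 444 to 486 CPM, with Upk3b, Lrrn4 and Upk1b at 0 counts in HPmECC and Wt1 and Upk1b in mECC. Of the 6 endothelial markers 4 passed the filter on low counts (Pecam1 and Emcn did not). Of the 8 leukocyte markers 6 passed it (Cd3e and Cd79a did not). The endothelial and leukocyte markers that passed were all lower in both lines than in normal cells. For Cdh5, Tek, Esam, Ptprc, Adgre1 and Lyz2, at most 0.11 CPM on average in either line, this was fixed in advance. They could pass the filter only through the normal libraries. Not every marker of these lists was present in normal cells. Pecam1 averaged 0.61 CPM there, Emcn 0.37, Cd3e 0.011, Cd79a 0.11 and Ptprc 1.16. By the markers detected, and only by those, the normal cultures held RNA of several cell types. The part of this in the members' differences from normal cells was not tested. In bulk RNA, fewer dividing cells and less of a transcript per dividing cell cannot be told apart.

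Genes expressed late in the cycle are known to carry a CHR element (TTTGAA, here also in the variant TTCGAA) and CCAAT boxes near their start sites, through which the MuvB complexes and NF-Y act, while Myc binds the E-box CACGTG. RefSeq promoter windows on GRCm38.p6, from 250 bases before to 50 after each start, matched 34 of the 41 genes. Each motif was searched on both strands (TTCGAA and CACGTG read the same on both). On the other strand CCAAT appears as ATTGG. Likewise TTTGAA appears there as TTCAAA. Neighbouring matches of different kinds can share a base or more. A CHR-type match stood in a window of 27 of the 34 members (79.4%), and in 21.7% of all 27025 genes with windows of this length. CCAAT stood in 26 members (76.5%) against 41.1% of all genes, and at 2 or more places in 17 (50%) against 13.3%. Both kinds stood together in 24 members (70.6%) against 8.61%. CACGTG stood in 3 members (8.82%: Anln, Espl1 and Ttk) against 8.09% of all genes. These shares describe letters in windows that were not matched for base composition.

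The 250 bases before the start are shown for 5 members whose values the following paragraphs turn on, 5′ to 3′ on the strand of the gene and in lower case, with matches to these motifs in capitals. Bub1b (chr2:118597961-118598210, plus strand) and Ncapd2 (chr6:125191587-125191836, minus strand) had the largest differences between HPmECC and normal cells. Spc25 (chr2:69206214-69206463, minus strand) was the member lower in HPmECC than in mECC, Anln (chr9:22389207-22389456, minus strand) the member lower than normal cells in both lines, and Top2a (chr11:99024190-99024439, minus strand) the member with the highest CPM in both lines.
Bub1b: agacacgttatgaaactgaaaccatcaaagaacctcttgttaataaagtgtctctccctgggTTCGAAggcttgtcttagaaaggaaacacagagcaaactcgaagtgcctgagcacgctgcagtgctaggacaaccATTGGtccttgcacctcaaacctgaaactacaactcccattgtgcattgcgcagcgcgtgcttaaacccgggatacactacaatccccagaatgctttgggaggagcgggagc
Ncapd2: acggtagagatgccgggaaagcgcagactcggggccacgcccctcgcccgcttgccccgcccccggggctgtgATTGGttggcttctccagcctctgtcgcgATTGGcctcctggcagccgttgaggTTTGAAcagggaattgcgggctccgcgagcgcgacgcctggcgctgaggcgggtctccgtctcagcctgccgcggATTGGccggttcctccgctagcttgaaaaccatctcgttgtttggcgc
Spc25: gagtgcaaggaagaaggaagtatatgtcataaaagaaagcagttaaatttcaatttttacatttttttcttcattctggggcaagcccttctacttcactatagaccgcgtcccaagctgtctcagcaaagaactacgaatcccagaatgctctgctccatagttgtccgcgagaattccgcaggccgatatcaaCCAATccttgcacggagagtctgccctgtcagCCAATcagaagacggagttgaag
Anln: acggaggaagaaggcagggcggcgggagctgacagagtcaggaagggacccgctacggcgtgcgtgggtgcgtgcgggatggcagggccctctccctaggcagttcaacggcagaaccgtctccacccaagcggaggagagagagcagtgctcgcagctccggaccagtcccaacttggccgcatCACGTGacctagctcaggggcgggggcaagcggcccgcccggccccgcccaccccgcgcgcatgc
Top2a: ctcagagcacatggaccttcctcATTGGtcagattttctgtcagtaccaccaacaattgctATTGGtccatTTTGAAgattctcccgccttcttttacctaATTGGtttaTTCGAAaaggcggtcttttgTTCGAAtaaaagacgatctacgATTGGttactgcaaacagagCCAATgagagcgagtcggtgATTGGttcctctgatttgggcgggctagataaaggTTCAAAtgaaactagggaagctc
Top2a held 4 CHR-type matches and 6 CCAAT boxes in this stretch, and Ncapd2 held 1 and 3. Spc25 held 2 CCAAT boxes at 55 and 23 bases before the start, and Anln 1 CACGTG at 65 bases. Bub1b held 1 CCAAT box at 113 and 1 CHR-type match at 188 bases. Each distance was counted to the leftmost base of the match. The windows searched also ran past the start, into bases not shown here. Over its whole window Anln held 2 CHR-type matches, Spc25 held 1 and Bub1b held 2. Those of Anln and Spc25 all lay after the start. The windows of Top2a and Ncapd2 held no further match.

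The cyclins and entry kinases were ordered alike, with HPmECC highest and normal cells lowest for all 6, and no overlap between any of the groups. Ccna2, which encodes cyclin A of S phase and early mitosis (ENSMUSG00000027715, chromosome 3 at 36564865 to 36572150 on GRCm38), stood at 166, 176, 177 and 173 CPM in HPmECC, against 118, 115, 112 and 103 in mECC and 63.1, 68.8, 66 and 64.5 for the normal cultures. It was 1.54-fold above mECC in HPmECC (log2FC 0.63 ± 0.038 SE, adjusted p = 4.45e-11 by edgeR) and 2.63-fold higher than in normal cells. The mitotic cyclin gene Ccnb2 was 1.52-fold above mECC in HPmECC, at 84.8 ± 0.61 CPM in the HPmECC libraries, 55.6 ± 2.40 in those of mECC and 34.5 ± 0.59 in those of normal cells. Its relative Ccnb1 differed less, at 108 ± 0.93 CPM in HPmECC, against 83.1 ± 6.78 in mECC and 68.5 ± 1.63 for the normal cultures (log2 fold change 0.38 between the lines). Cdk1, the kinase both cyclins bind, was the most abundant member per length in every group, at 285 ± 11.2 TPM in HPmECC, 236 ± 13.9 TPM in mECC and 166 ± 6.44 TPM in normal cells, and had the smallest rises of the 6 genes (0.32 between the lines, 0.57 for HPmECC and 0.25 for mECC against normal cells). Plk1 and Aurka, kinases of centrosome maturation and spindle assembly, were 1.48-fold and 1.38-fold higher in HPmECC than in mECC, and 1.69-fold and 1.77-fold higher in mECC than in normal cells. The edgeR adjusted p-values of the 6 genes were at most 1.28e-05 in any of the 3 comparisons.

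The chromosomal passenger complex, which corrects faulty attachments and later marks the division plane, was higher in HPmECC than in mECC for all 4 genes. Its kinase gene Aurkb stood at 77.2, 81.2, 76.7 and 78.98 CPM in the HPmECC libraries, 54.4, 50.7, 55.4 and 49.8 in those of mECC and 26.7, 25.3, 26.6 and 25.7 in those of normal cells. The 3 groups did not overlap (3.02-fold higher in HPmECC and 2.02-fold higher in mECC than in normal cells). Incenp, the scaffold, was 1.33-fold above mECC in HPmECC, and Birc5, which encodes survivin, 1.17-fold. Cdca8, which encodes borealin, broke the order. It stood at 71.3, 74.6, 72.7 and 68.7 CPM in HPmECC, against 43.1, 40.1, 41.9 and 37.8 in mECC and 39.5, 42.1, 43.03 and 37 for the normal cultures. The mECC and normal libraries overlapped (log2FC 0.012 ± 0.051 SE, adjusted p = 0.827 by edgeR), whereas HPmECC lay 1.76-fold above mECC, the largest step between the lines among the 41 members (log2FC 0.82 ± 0.047 SE, adjusted p = 2.44e-11 by edgeR). Per length the 4 genes stood at 81.5 (Aurkb), 69.6 (Incenp), 141 (Birc5) and 81.6 TPM (Cdca8) in HPmECC.

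The 5 spindle checkpoint genes differed widely among themselves. Bub1b, which encodes the checkpoint protein BubR1 (ENSMUSG00000040084, chromosome 2 at 118598211 to 118641591), had the largest difference of all members from normal cells. It stood at 163, 165, 164 and 170.3 CPM in the HPmECC libraries, 121, 114, 125 and 118 in those of mECC and 30.3, 33.7, 30.5 and 32.1 in those of normal cells. No groups overlapped, and HPmECC was 5.22-fold (log2FC 2.38 ± 0.039 SE, adjusted p = 2.00e-20 by edgeR) and mECC 3.76-fold (log2FC 1.91 ± 0.040 SE, adjusted p = 6.57e-19 by edgeR) above normal cells. Bub1, the related kinase gene, was 2.25-fold and 2.02-fold above normal cells in HPmECC and mECC, but the lines differed by only 1.11-fold (log2FC 0.16 ± 0.045 SE, adjusted p = 0.00455 by edgeR). On log2(TPM + 1) that step of Bub1 was 0.062 and not called. Ttk, whose kinase starts checkpoint signalling, was the least abundant of the 5, at 25.1 ± 0.71 CPM in HPmECC, against 18.1 ± 0.86 in mECC and 11.9 ± 0.64 for the normal cultures, and was called higher in each comparison.

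Mad2l1 encodes the protein that blocks Cdc20. It stood at 74.6, 76.8, 75.6 and 73.6 CPM in HPmECC and 75.99, 71.6, 73.8 and 69.3 CPM in mECC, which overlapped (log2FC 0.049 ± 0.035 SE, adjusted p = 0.236 by edgeR), and at 42.5, 43.1, 44.7 and 40.5 CPM in normal cells, below both lines. Bub3, which recruits Bub1 and BubR1 to kinetochores and also has roles outside mitosis, differed little from normal cells in either line. Between the lines Bub3 was 1.27-fold higher in HPmECC (log2FC 0.34 ± 0.031 SE, adjusted p = 1.2e-08 by edgeR). Its libraries held 115, 115, 118 and 122 CPM in the HPmECC libraries, 96.2, 91.8, 93.9 and 88.6 in those of mECC and 104, 106, 104 and 103 in those of normal cells. The groups did not overlap, with HPmECC above normal cells (log2FC 0.17 ± 0.031 SE, adjusted p = 5.16e-05 by edgeR) and mECC below them (log2FC -0.17 ± 0.031 SE, adjusted p = 5.44e-05 by edgeR). The mECC call turned with the scale, since the log2 fold change was 0.069 with library totals and 0.083 on log2(TPM + 1), neither past the threshold.

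**Figure D2:**
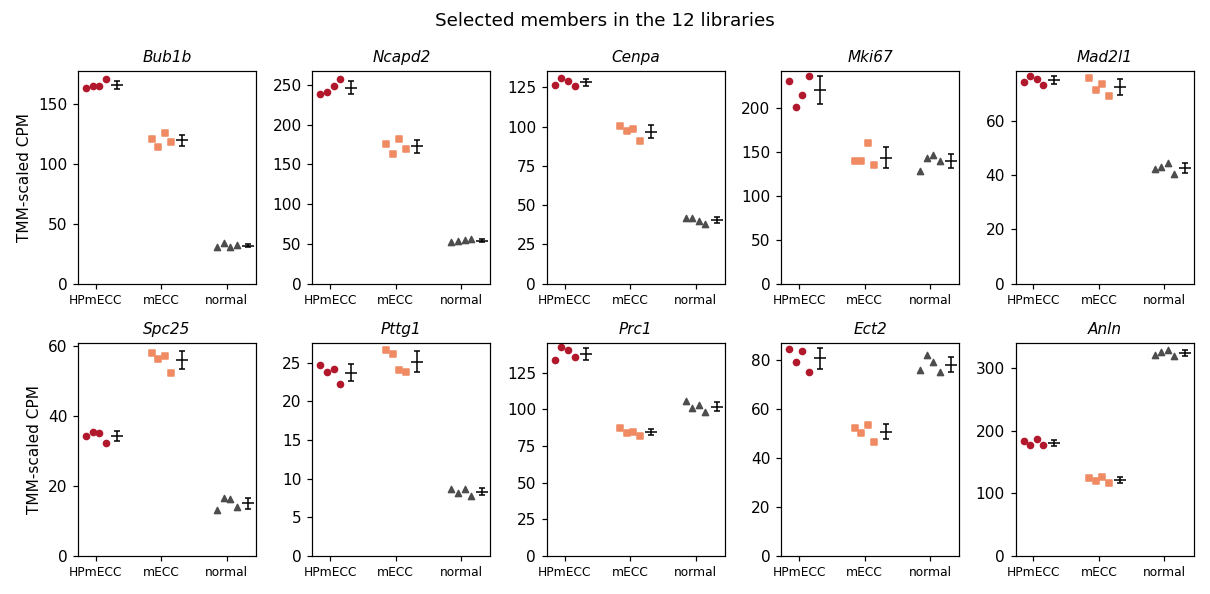
CPM after TMM scaling of 10 members in the 4 libraries of each group (points), with the mean and SD beside them; each vertical axis starts at 0. Bub1b, Ncapd2 and Cenpa step down from HPmECC to mECC to normal cells, Mki67 is high in HPmECC alone, Spc25 is highest in mECC, Pttg1 and Mad2l1 overlap between the lines, and Anln is highest in normal cells.

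All 7 kinetochore genes were higher than normal cells in both lines, and 6 of them were higher in HPmECC than in mECC. Cenpa, the histone variant that marks the centromere (ENSMUSG00000029177, chromosome 5 at 30666777 to 30674830), stood at 126, 131, 129 and 126 CPM in HPmECC, against 100.2, 96.9, 98.5 and 90.9 in mECC and 41.7, 41.97, 39.6 and 38.1 for the normal cultures, with no overlap (3.18-fold and 2.4-fold above normal cells in HPmECC and mECC). The large fibrous-corona genes Cenpe, a kinesin, and Cenpf were close to normal cells in mECC and higher in HPmECC. Cenpf held 74.04, 60.9, 71.6 and 74.6 CPM in the HPmECC libraries, 37.6, 39.9, 45.3 and 39.1 in those of mECC and 30.9, 38.5, 36.7 and 36.7 in those of normal cells. HPmECC stood apart (1.73-fold above mECC, log2FC 0.79 ± 0.069 SE, adjusted p = 7.93e-09 by edgeR), while mECC and normal libraries overlapped (log2FC 0.18 ± 0.076 SE, adjusted p = 0.0376 by edgeR). That last call was lost without mECC replicate 3 (log2 fold change 0.12), without normal replicate 1 (0.119), 3 or 4 (0.186 each), with median-of-ratios factors (0.153) and with DESeq2 (0.155). Cenpe was 1.39-fold above mECC in HPmECC and 1.11-fold higher in mECC than in normal cells (log2FC 0.15 ± 0.037 SE, adjusted p = 0.0013 by edgeR).

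The NDC80 complex joins Ndc80 and Nuf2, which touch the microtubule, to Spc24 and Spc25, which hold the kinetochore, and in it Spc25 parted from its partners. Spc25 (ENSMUSG00000005233, chromosome 2 at 69193895 to 69206194) stood at 34.1, 35.2, 35.01 and 32.2 CPM in HPmECC, against 58.03, 56.3, 57.1 and 52.1 in mECC and 13.2, 16.4, 16.1 and 14.1 for the normal cultures. The groups did not overlap and mECC was the highest, so that HPmECC was 1.64-fold lower than mECC (log2FC -0.71 ± 0.051 SE, adjusted p = 4.75e-10 by edgeR) and 2.27-fold higher than normal cells (log2FC 1.19 ± 0.063 SE, adjusted p = 1.31e-12 by edgeR). The 3 partners were each higher in HPmECC than in mECC, by log2 fold changes of 0.29 (Ndc80), 0.41 (Nuf2) and 0.28 (Spc24), with edgeR adjusted p-values of at most 2.08e-04. Per length the levels of Ndc80, Nuf2, Spc24 and Spc25 were 34.8 ± 1.51, 45.7 ± 1.68, 42.8 ± 4.40 and 47.3 ± 2.23 TPM in HPmECC (SD, n = 4). In mECC they were 29.9 ± 1.96, 36.4 ± 2.24, 34.1 ± 2.18 and 80.04 ± 4.39 TPM, and in normal cells 13.3 ± 0.54, 13.2 ± 0.77, 19.9 ± 0.33 and 18.6 ± 2.03 TPM. Spc25 RNA was thus of the order of its partners' in HPmECC and normal cells and above all 3 of them in mECC.

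Among the genes of anaphase, Cdc20 and Espl1 had larger steps between the lines than Ube2c, and Pttg1 had none that was called. Cdc20, the activator of the anaphase-promoting complex, stood at 123, 126, 119 and 119.5 CPM in the HPmECC libraries, 75.7, 71.8, 74.6 and 71.9 in those of mECC and 52.2, 52.7, 56.5 and 50.3 in those of normal cells, without overlap (log2FC 0.73 ± 0.035 SE, adjusted p = 1.49e-12 by edgeR between the lines). Ube2c, the ubiquitin-conjugating enzyme of that complex, was 1.32-fold above mECC in HPmECC and 1.3-fold higher in mECC than in normal cells. Espl1 encodes separase, the protease that cuts cohesin, and Pttg1 encodes securin, which holds separase inactive. Espl1 stood at 64.7, 68.5, 65.9 and 65.8 CPM in HPmECC, against 44.3, 40.99, 44.1 and 38.8 in mECC and 18.1, 23.6, 20.6 and 19.6 for the normal cultures. Pttg1 stood at 24.6, 23.8, 24.2 and 22.2 CPM in the HPmECC libraries, 26.6, 26.1, 24.03 and 23.8 in those of mECC and 8.60, 8.10, 8.71 and 7.71 in those of normal cells. Espl1 thus separated all 3 groups, 1.57-fold above mECC in HPmECC (log2FC 0.66 ± 0.053 SE, adjusted p = 2.69e-09 by edgeR), while the lines overlapped for Pttg1 (log2FC -0.086 ± 0.053 SE, adjusted p = 0.162 by edgeR). Against normal cells Pttg1 was among the members with the largest differences, 2.87-fold higher in HPmECC and 3.05-fold higher in mECC. On the TPM scale the step of Espl1 between the lines was smaller and more scattered (log2 fold change 0.352, SE 0.23, on log2(TPM + 1)) and was not called.

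Condensin genes and other genes of chromosome structure were all higher in HPmECC than in mECC, 6 of 6. Ncapd2, a subunit of condensin I (ENSMUSG00000038252, chromosome 6 at 125168007 to 125191701), was second to Bub1b in the difference of HPmECC from normal cells. It stood at 239, 242, 249 and 258 CPM in HPmECC, against 176, 163, 182 and 169.8 in mECC and 51.7, 53.6, 55.1 and 55.9 for the normal cultures, that is 4.56-fold higher in HPmECC (log2FC 2.19 ± 0.039 SE, adjusted p = 6.04e-20 by edgeR) and 3.19-fold higher in mECC. Its partner Ncapg was 2.5-fold and 2.01-fold higher than normal cells in HPmECC and mECC. The core subunits shared by condensin I and II differed less from normal cells. Smc4 was 1.89-fold and 1.26-fold higher than normal cells in HPmECC and mECC. Smc2 stood at 95.5, 99.2, 96.9 and 99.6 CPM in the HPmECC libraries, 87.2, 79.8, 85.02 and 80.5 in those of mECC and 78.4, 83.8, 80.5 and 80.9 in those of normal cells. The mECC and normal libraries overlapped for Smc2 (log2FC 0.038 ± 0.035 SE, adjusted p = 0.315 by edgeR), and HPmECC was 1.21-fold higher than normal cells. On the TPM scale the step of Smc2 between the lines was not called (log2 fold change 0.074 on log2(TPM + 1)).

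Top2a, the topoisomerase that untangles sister chromatids, had the highest CPM of the members in both lines, at 438, 430, 437 and 440.1 CPM in HPmECC, against 332, 323, 335 and 307 in mECC and 166, 181, 182 and 173 for the normal cultures. The groups were well apart, with HPmECC 1.35-fold above mECC and mECC 1.85-fold above normal cells. Mki67, the standard proliferation marker Ki-67, which coats mitotic chromosomes, did not follow it. It stood at 231, 202, 215 and 238 CPM in the HPmECC libraries, 139.7, 139.6, 161 and 135 in those of mECC and 129, 144, 146 and 140.2 in those of normal cells. HPmECC was 1.54-fold above mECC (log2FC 0.62 ± 0.055 SE, adjusted p = 1.15e-08 by edgeR), while the mECC and normal libraries overlapped (log2FC 0.041 ± 0.057 SE, adjusted p = 0.505 by edgeR). The difference of mECC from normal cells was called higher with library totals (log2 fold change 0.282) and on log2(TPM + 1) (0.274), and stood at -0.013 without mECC replicate 3.

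**Figure D3:**
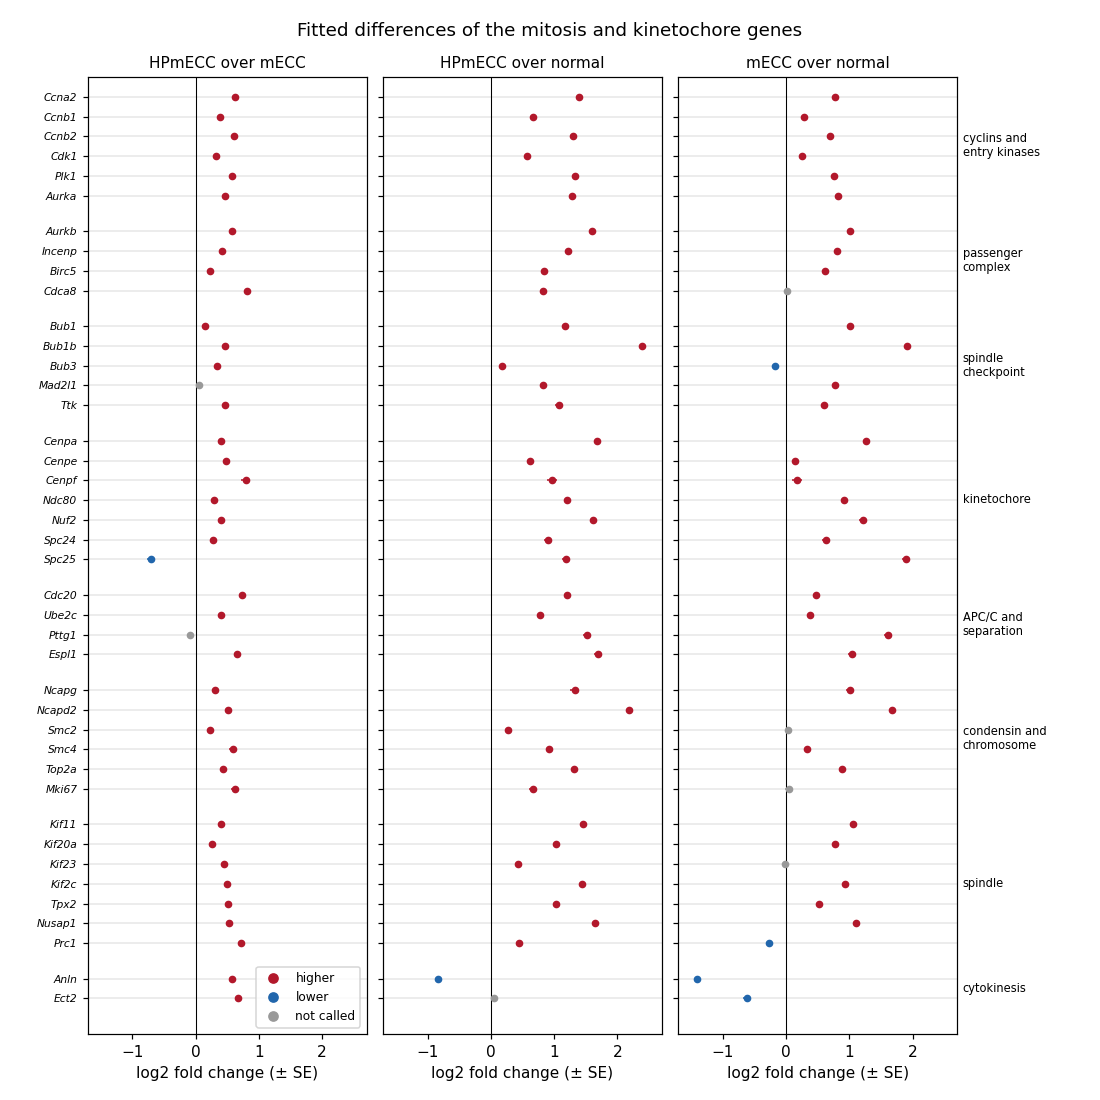
Fitted log2 fold changes of the 41 genes with their SE, in HPmECC over mECC, HPmECC over normal cells and mECC over normal cells, coloured by the edgeR call at an adjusted p under 0.05. Most points lie right of 0; Spc25 lies left of it between the lines, Anln in both comparisons with normal cells, and Bub3, Prc1 and Ect2 in mECC over normal cells.

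Of the 7 genes of spindle motors and microtubule binders, all were higher in HPmECC than in mECC, by log2 fold changes of 0.26 (Kif20a) to 0.71 (Prc1). Kif11, the motor that pushes spindle poles apart, stood at 122, 122, 122 and 119 CPM in HPmECC, against 96.6, 90.5, 95.3 and 85.4 in mECC and 43.1, 46.02, 44.2 and 43.3 for the normal cultures, with no overlap. Nusap1, which bundles microtubules near chromosomes, was 3.11-fold and 2.15-fold higher than normal cells in HPmECC and mECC. Kif2c, a microtubule depolymerase that frees wrong attachments, was 2.71-fold and 1.91-fold higher, and Tpx2, an activator of Aurora A, 2.04-fold and 1.44-fold. Kif20a, a kinesin of late mitosis, was 2.05-fold and 1.71-fold higher.

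The genes of the central spindle and of cytokinesis departed from this pattern against normal cells. Prc1, which bundles the central spindle, stood at 133, 142, 140.5 and 136 CPM in the HPmECC libraries, 87.02, 83.5, 84.4 and 82.05 in those of mECC and 106, 101, 103 and 97.9 in those of normal cells. Normal cells lay between the lines, with HPmECC 1.36-fold higher (log2FC 0.44 ± 0.032 SE, adjusted p = 1.74e-10 by edgeR) and mECC 1.21-fold lower (log2FC -0.27 ± 0.033 SE, adjusted p = 2.74e-07 by edgeR). The lower call of Prc1 in mECC was lost with library totals (log2 fold change -0.031) and on log2(TPM + 1) (0.005). Kif23, a kinesin of the same structure, stood at 60.4 ± 3.40 CPM in HPmECC, against 44.2 ± 0.94 in mECC and 44.96 ± 1.15 for the normal cultures, and only HPmECC stood apart (log2FC 0.43 ± 0.041 SE, adjusted p = 1.15e-08 by edgeR against normal cells, and log2FC -0.025 ± 0.042 SE, adjusted p = 0.573 by edgeR for mECC against normal cells). With library totals Kif23 was called higher in mECC than in normal cells (log2 fold change 0.215).

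Ect2, the exchange factor that switches on RhoA at the division plane (ENSMUSG00000027699, chromosome 3 at 27097222 to 27153878), stood at 84.7, 79.3, 83.8 and 75.2 CPM in the HPmECC libraries, 52.2, 50.2, 53.6 and 46.6 in those of mECC and 75.97, 82.1, 79.3 and 75.4 in those of normal cells. The mECC libraries were below all others (log2FC -0.62 ± 0.048 SE, adjusted p = 3.96e-10 by edgeR against normal cells), while HPmECC and normal libraries overlapped (log2FC 0.044 ± 0.046 SE, adjusted p = 0.378 by edgeR). With library totals the difference of HPmECC from normal cells was called (log2 fold change 0.24). Anln encodes anillin, a scaffold of the contractile ring that also binds actin at cell junctions (ENSMUSG00000036777, chromosome 9 at 22332012 to 22389188). It stood at 184, 178, 186 and 177 CPM in HPmECC, against 125, 119, 125 and 117 in mECC and 320.3, 326, 329.5 and 319.8 for the normal cultures. Normal cells were the highest, with HPmECC 1.79-fold lower (log2FC -0.84 ± 0.029 SE, adjusted p = 1.88e-15 by edgeR) and mECC 2.67-fold lower (log2FC -1.42 ± 0.030 SE, adjusted p = 8.57e-19 by edgeR). Between the lines Anln followed the other members, 1.49-fold higher in HPmECC (log2FC 0.57 ± 0.030 SE, adjusted p = 5.08e-12 by edgeR). Anln and Ect2 kept their lower call against normal cells in mECC under all 21 alternative settings.

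Per length the 5 most abundant members were Cdk1, Ube2c, Cenpa, Top2a and Birc5 in both, at 285, 277, 264, 190.3 and 141 TPM in HPmECC and 236, 221, 203, 151 and 126 TPM in mECC. In normal cells they were Cdk1, Ube2c, Anln, Bub3 and Cenpa, at 166, 144, 127, 73.8 and 71.9 TPM. Other places differed between the lines: Spc25 ranked 26 in HPmECC and 7 in mECC, and Pttg1 22 in HPmECC and 6 in mECC. The least abundant in every group were Ttk and Cenpf, with Cenpf at 13.3 ± 3.08 TPM in HPmECC, 6.69 ± 0.763 TPM in mECC and 5.07 ± 0.683 TPM in normal cells (SD). HPmECC replicate 4 raised that mean, at 17.91 TPM, where the other HPmECC libraries held 11.46 to 11.97 TPM. The median member stood at 74.4 TPM in HPmECC, 55.9 TPM in mECC and 32.1 TPM in normal cells, where the median of all genes tested was 14.7, 15.5 and 14.0 TPM.

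Other genes of the pathway were counted from lists that hold no member, also chosen with earlier results of these data known. Beside them, 33.8% of all genes tested were higher and 34.5% lower in HPmECC against mECC. In HPmECC against normal cells these shares were 43.0% and 43.3%, and in mECC against normal cells 42.1% and 44.2%. All 18 other spindle and cytokinesis genes were higher in HPmECC than in mECC, with Dlgap5, which stabilises kinetochore fibres, at 49.4 ± 2.50 CPM for HPmECC and 28.4 ± 1.99 CPM for mECC. In HPmECC against normal cells 17 of the 18 were higher and 1 was not called, and in mECC against normal cells 15 were higher and 3 lower. Cit, a kinase gene of cytokinesis, stood at 59.96 ± 3.74 CPM in the HPmECC libraries, 35.2 ± 1.59 in those of mECC and 14.6 ± 0.59 in those of normal cells. The 30 other kinetochore and centromere genes numbered 18 higher, 4 lower and 8 not called in HPmECC against mECC, 25 higher, 3 lower and 2 not called in HPmECC against normal cells, and 22 higher, 3 lower and 5 not called in mECC against normal cells. Their median log2 fold changes were 0.20, 0.84 and 0.57. Cenpm, of the inner kinetochore, was among the genes with the largest differences, at 17.3 ± 0.46 CPM in HPmECC, against 10.1 ± 0.53 in mECC and 3.68 ± 0.27 for the normal cultures. The 4 other condensin subunits were all higher in HPmECC than in mECC, and in mECC against normal cells 3 were higher and 1 lower. The lower one was Ncapg2 of condensin II, with 33.5 ± 2.99 CPM for mECC and 48.4 ± 1.93 CPM for normal cells.

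Genes for subunits of the anaphase-promoting complex, and for proteins that act with or on it, were mostly higher in the cancer lines than in normal cells. Of 17 genes, 5 were higher and 6 lower in HPmECC than in mECC (median log2 fold change 0.019), near the 33.8% and 34.5% of all genes, whereas HPmECC had 12 higher and 3 lower than normal cells, and mECC 15 higher and 2 lower. Anapc4, a scaffold subunit, stood at 170.4 ± 3.82 CPM in the HPmECC libraries, 207 ± 1.64 in those of mECC and 68.5 ± 1.05 in those of normal cells. Cohesin genes numbered 12 higher, 3 lower and 0 not called of 15 in HPmECC against mECC, 10 higher, 4 lower and 1 not called in HPmECC against normal cells and 9 higher, 4 lower and 2 not called in mECC against normal cells. The largest of these differences was that of Pds5b, a regulator of cohesin release, at 188 ± 5.99 CPM in HPmECC, against 148 ± 2.88 in mECC and 30.9 ± 1.52 for the normal cultures. Centriole and centrosome genes numbered 6 higher, 0 lower and 3 not called of 9 between the lines and 4 higher, 4 lower and 1 not called in mECC against normal cells. The count in HPmECC against normal cells was 6 higher, 2 lower and 1 not called, with Cenpj, a regulator of centriole length, at 8.08 ± 0.71 CPM in the HPmECC libraries, 7.22 ± 0.58 in those of mECC and 15.7 ± 0.4 in those of normal cells. Among all genes 43.0% were higher and 43.3% lower in HPmECC against normal cells, and 42.1% and 44.2% in mECC against normal cells. The centriole and centrosome count in mECC lay near those last shares.

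Regulators of these genes were counted in the same way, and their counts in mECC against normal cells lay near the 42.1% higher and 44.2% lower of all genes. Of 17 regulators of mitotic transcription there were 12 higher, 2 lower and 3 not called in HPmECC against mECC, and 6 higher, 7 lower and 4 not called in mECC against normal cells. In HPmECC against normal cells the count was 11 higher, 5 lower and 1 not called. Foxm1, the forkhead activator of late cell-cycle genes, stood at 116 ± 0.72 CPM in HPmECC, against 107 ± 5.14 in mECC and 46.03 ± 1.46 for the normal cultures. Rbl2, whose protein p130 represses the same genes in resting cells, stood at 49.6 ± 1.24 CPM in the HPmECC libraries, 73.7 ± 2.68 in those of mECC and 24.9 ± 1.07 in those of normal cells, below mECC in HPmECC (log2FC -0.57) and higher in mECC than in normal cells (1.56). Of 12 regulators of CDK1 there were 9 higher, 2 lower and 1 not called in HPmECC against mECC, 9 higher, 3 lower and 0 not called in HPmECC against normal cells, and 5 higher, 6 lower and 1 not called in mECC against normal cells. The phosphatase gene Cdc25b, which activates Cdk1, stood at 131 ± 5.32 CPM in HPmECC, against 92.2 ± 2.24 in mECC and 23.5 ± 1.87 for the normal cultures. Its relative Cdc25c was also called higher in both lines than in normal cells, but Cdc25a was called lower in both.

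S phase genes served as the nearest other cell-cycle group. Of 15 genes there were 13 higher, 1 lower and 1 not called between the lines (median log2 fold change 0.22, where the mitosis genes had 0.46). In HPmECC against normal cells there were 11 higher, 0 lower and 4 not called (median 0.49, where the mitosis genes had 1.17), and in mECC against normal cells there were 9 higher, 6 lower and 0 not called (median 0.16, where the mitosis genes had 0.76). The difference between these lists was not tested. The replication helicase gene Mcm7 stood at 208 ± 8.65 CPM in the HPmECC libraries, 161 ± 6.94 in those of mECC and 92.3 ± 2.39 in those of normal cells. The other Mcm genes of this list did not all go with it. In mECC against normal cells Mcm2 was called higher, but Mcm3, Mcm4, Mcm5 and Mcm6 were called lower. In HPmECC against normal cells Mcm2, Mcm3 and Mcm6 were called higher, while Mcm4 and Mcm5 were not called.

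**Figure D4:**
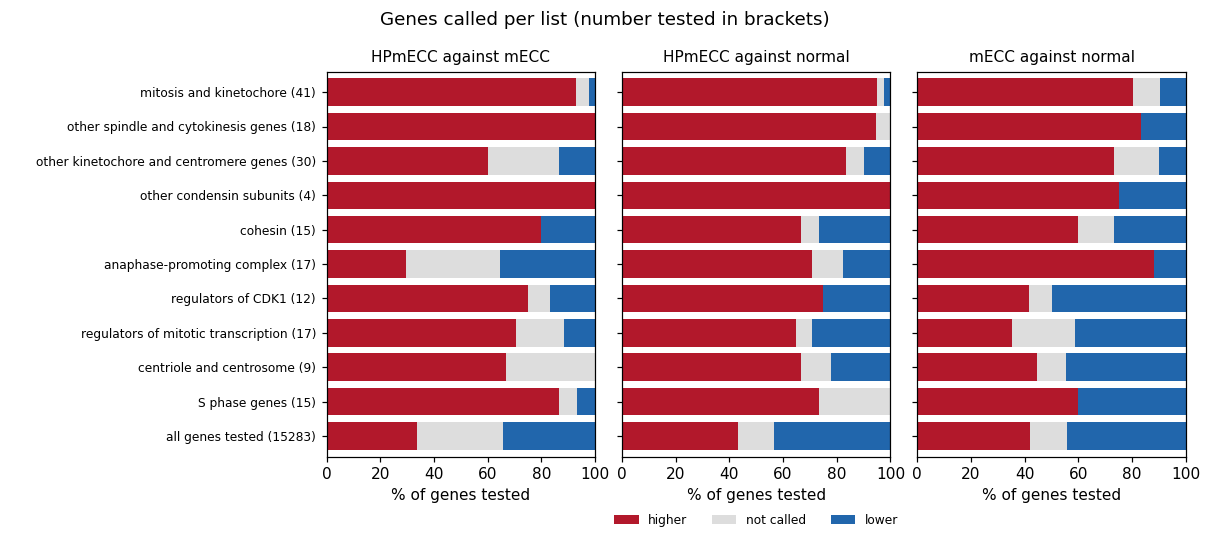
Share of genes called higher, not called and called lower in each list, for HPmECC against mECC, HPmECC against normal cells and mECC against normal cells, with the number of genes tested in brackets and all 15283 genes in the bottom row. The 41 mitosis and kinetochore genes and the 18 other spindle and cytokinesis genes are mostly higher in all 3 panels. So are the other kinetochore and centromere genes, the other condensin subunits, the cohesin genes and the S phase genes.

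Within a group the members deviated together, most plainly in mECC. In mECC replicate 1, 39 of the 41 members lay above the group mean on the log2 scale (median deviation 0.062), and in replicate 3, 38 did (0.032). In mECC replicate 4 only 1 member lay above it (-0.076), and in replicate 2, 6 did (-0.029). The mECC libraries thus differed from each other in the members as a whole, by small amounts. Such counts were not made over all genes tested. A shift of the members therefore cannot be told apart from a shift of the whole library. The HPmECC libraries were closer, with medians of -0.01 to 0.013 and 14 to 26 members above the mean. In normal cells, 11, 31, 32 and 12 members lay above the mean in replicates 1 to 4, with medians of -0.025, 0.041, 0.026 and -0.032. The coefficient of variation of a member over the 4 libraries had a median of 2.77% in HPmECC, 4.72% in mECC and 4.02% in normal cells. The lowest and highest were 0.714% and 9.1% in HPmECC, 1.75% and 8.31% in mECC, and 1.0% and 13.2% in normal cells. What these shared deviations came from was not tested.

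**Figure D5:**
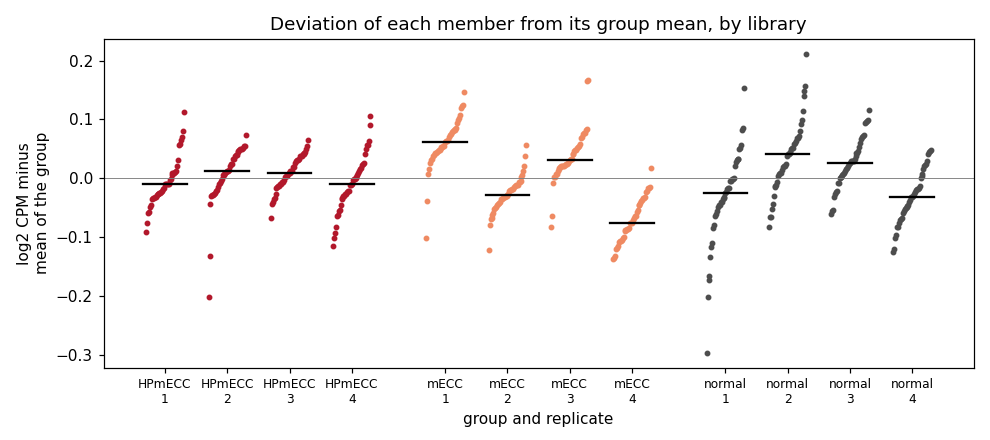
Deviation of each of the 41 genes from its group mean (log2 CPM, vertical axis) in each library (horizontal axis), with 1 point per gene in rising order and a bar at the median. In mECC, replicates 1 and 3 lie above 0 and replicates 2 and 4 below it, while the medians of the HPmECC libraries lie between -0.01 and 0.013.

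The libraries held 16332060 to 26873582 counts. The first principal component of all genes (82.6% of the variance) and the second (13.1%) far exceeded the next (0.642%), and no library fell among those of another group in the members' summed CPM. Mitochondrial transcripts made up 1.28% to 1.43% of counts in HPmECC, 1.18% to 1.45% in mECC and 0.821% to 1.28% in normal cells. Some values are less certain than their errors show. No strand setting is stated, and parts of the exons of 8 members lie opposite exons of another protein-coding gene (Ccna2 with Exosc9, Cdca8 with 9930104L06Rik, Cdc20 with Elovl1, Ube2c with Tnnc2, Ncapg with Lcorl, Kif20a with Cdc23, Nusap1 with Oip5 and Prc1 with Rccd1). Reads from those stretches cannot be told apart without strand. Elovl1, with more reads over all libraries than Cdc20 itself, stood at 73.9 CPM in HPmECC, against 81.1 in mECC and 107 for the normal cultures, an order opposite to that of Cdc20. Oip5, opposite Nusap1, ran the same way as Nusap1, at 14.4 CPM in the HPmECC libraries, 9.11 in those of mECC and 5.65 in those of normal cells. Cdc23, opposite Kif20a, was also higher in both lines, at 75.6 CPM in HPmECC, against 74.7 in mECC and 54.6 for the normal cultures. Near-identical copies (at least 95% identity over 200 bases or more) exist for Ccnb1, Cdc20, Mad2l1, Mki67 and Ndc80. The copies held at most 71 counts in all, except the copy of Ndc80, 2700099C18Rik, with 1233 counts against 9208 for Ndc80.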

How the data were processed

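RNA was taken with RNeasy kits and sequenced from TruSeq mRNA libraries, per the labels' protocols. The authors deposited estimated counts per gene from RSEM 1.3.1 after Trim Galore and STAR 2.6.1a on GRCm38, per the submitters' processing notes. These expected counts were whole numbers as deposited, so rounding changed nothing. The authors also deposited TPM, which here served levels between genes and an alternative test, and FPKM, which were not used. For the annotation release and strand setting, the sources used here give nothing.

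The counts of all 12 libraries (16332060 to 26873582 per library, which sets the counting precision) were fitted together in edgeR 4.0.16 (R 4.3.3) with TMM factors, after filterByExpr with a minimum count of 10, and tested by quasi-likelihood. P-values were adjusted by Benjamini-Hochberg over all 15283 genes at a threshold of 0.05. The SE of a log2 fold change was its size over the root of F. The biological coefficient of variation was 4.27%. The code was tested on simulated data. Replicate numbers 1 to 4 recur in each group, but deviations of same-numbered libraries correlated by -0.027 to 0.08, so no pairing was assumed. No libraries were duplicates, since replicates differed by more than sampling noise.

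Alternatives were DESeq2 1.42.0, limma 3.58.1 on log2(TPM + 1) and log2(TPM + 0.1), other size factors and filters, the replicate block, fits of 2 groups, and leaving out each library. The 41 genes and the other lists were chosen with earlier results of these data known. Any of the 41 could be named with values. Of each other list, up to 2 called genes per comparison with the largest log2 fold change could be named with values, if they reached 5 CPM in either group. Gene coordinates are from GENCODE M21 on GRCm38, and promoter windows from RefSeq on GRCm38.p6.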

Additional observations from a re-analysis of the deposited data

Results flagged for a closer look

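Of 123 sets of 4 libraries (41 genes in 3 groups), 4 had a library that stood apart by Dixon's criterion, where chance gives about 1 in 20, or 6.15 sets. Plk1, a mitotic kinase gene, stood at 53.2 CPM in normal replicate 1, with the other normal libraries at 45.7 to 46.7 CPM. Incenp, the scaffold of the passenger complex, stood at 51.2 CPM in normal replicate 2, with the others at 47.8 to 48.3 CPM. Birc5, which encodes survivin, stood at 35.2 CPM in normal replicate 4, with the others at 38.3 to 38.6 CPM. Kif11, a spindle motor gene, stood at 119 CPM in HPmECC replicate 4, with the others near 122 CPM. None of these gaps reached another group's libraries.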

How the results depend on the processing

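Of 2583 values of single members under alternative settings, 2540 kept their direction and side of the threshold. Calls were lost for 18 and gained for 16, and 15 values turned in direction, all 15 in mECC against normal cells. Of those that turned, 5 had also lost the call and 1 had gained one. With library totals, with log2(TPM + 1) and with log2(TPM + 0.1), 2 members were lower between the lines, where Pttg1 joined Spc25, and 2 were lower in mECC than in normal cells. The median log2 fold changes in these settings were 0.418, 0.352 and 0.366 for HPmECC against mECC, 0.997, 0.928 and 0.944 for mECC against normal cells, and 1.368, 1.3 and 1.35 for HPmECC against normal cells. For HPmECC against normal cells it was 1.135 with median-of-ratios factors and with DESeq2, and 1.205 with no filter. Leaving out each library gave 1.134 to 1.201 there, 0.735 to 0.771 for mECC against normal cells and 0.445 to 0.475 between the lines, with 39, 32 to 33 and 38 members higher.

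The values that turned, all log2 fold changes of mECC against normal cells, were those of 5 genes. Cdca8 was -0.011 with median-of-ratios factors and with DESeq2, and -0.034 to 0.05 when 1 library was left out. Kif23 was 0.215 with library totals, 0.052 on log2(TPM + 1), 0.053 on log2(TPM + 0.1), 0.011 with no filter and 0.0 with only the 2 groups fitted. Bub3 was 0.069 with library totals, 0.083 on log2(TPM + 1) and 0.084 on log2(TPM + 0.1), and Prc1 was 0.005 on both TPM scales. Mki67 ranged from -0.013 to 0.073 when 1 library was left out. The cause was not tested. The replicate block left the members' counts at 38 higher and 1 lower, 33 and 4, and 39 and 1 in HPmECC against mECC, mECC against normal and HPmECC against normal cells, and it moved no count of all genes by over 1.5 times.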
